A study of Mus musculus with 32 samples.

Results

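Immediate early genes are transcribed within minutes of a growth factor, a stress or an injury, without new protein having to be made first. Their promoters hold sites for serum response factor and for CREB, which the MAP kinases and cAMP signalling act on. Several of the products are transcription factors, among them the FOS and JUN proteins, which pair to form AP-1, while others shut the response down again by removing phosphate from MAP kinases or by speeding the decay of mRNA. In the kidney these genes respond to injury of the tubule, and also to the handling of the tissue between death and freezing.

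The 10 genes described here, of the 53700 in the deposited table, are *Fos*, *Fosb*, *Jun*, *Junb*, *Egr1*, *Atf3*, *Ier2*, *Dusp1*, *Zfp36* and *Nr4a1*. They were chosen by symbol as immediate early genes with earlier results of these kidneys known, and 4 of them (*Atf3*, *Nr4a1*, *Fos* and *Egr1*) were among the genes that the study selected on their fold change between PKD + Salsalate and PKD. That contrast is therefore given below as a description. No numeric threshold set the list, so it has no members just inside or outside one.

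RNA was sequenced from 32 snap-frozen kidneys of male C57BL/6 mice of the iKspCre-*Pkd1*del model. In this model a tamoxifen-activated Cre driven by the kidney-specific cadherin promoter, which is active in tubule epithelium, removes part of *Pkd1*, whose loss causes cysts. PKD mice (n = 12) received 150 mg/kg tamoxifen and control chow. PKD + Salsalate mice (n = 12) received the same tamoxifen and, for the last 2 weeks, chow with 2.5 g/kg salsalate, a prodrug of salicylate that activates AMPK. Both PKD groups were 95 days old. Wildtype mice (n = 8) did not receive tamoxifen. Their labels give an age of 109 days, while the protocol has all mice killed at the age of the PKD groups, so their age is uncertain. Genotype, tamoxifen, day of collection and any difference in age cannot be told apart in a comparison with them. The labels number the kidneys as replicates without naming the animals, so p-values measure the spread between these samples.

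Counts on genes were between 11193136 and 109807664 per kidney (median 17242801). Levels are given as CPM, the count relative to the TMM-scaled library size. *Fos* in the wildtype kidneys rested on 6 to 26 counts and *Fosb* on 1 to 10. The other members had 23 counts or more in every kidney. The names of 5 wildtype libraries end in R and those of the other 3 do not, and no PKD library has this ending. The labels do not say what it means. Within the wildtype group the ending went with 6715 of 13961 tested genes (48.1%), so the comparisons with wildtype below are also given within each set, for members and for the other lists by their counts. *Pkd1* itself was at 53.1 to 86.4 CPM in wildtype and 70.7 to 113 CPM in PKD (log2 fold change 0.42 ± 0.11 SE, adjusted p = 0.0013). Its median was 61.4 CPM in the 5 wildtype libraries ending in R and 78.0 CPM in the other 3, beside 92.2 CPM in PKD. Its count covers exons outside the deleted part, so it does not check the deletion. PKD replicate 10 held liver transcripts, with a summed marker level of 6407 CPM beside 1174 to 1818 CPM in the treated group. As kidney tissue should, all groups expressed markers of proximal tubule (summed level 8310 to 18282 CPM in wildtype) and of distal tubule and collecting duct (4682 to 6917 CPM).

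To show what the members share apart from their counts, the 300 bases before the start of the main annotated transcript were read from GRCm39. The windows of *Fos*, *Fosb*, *Ier2* and *Atf3* are printed because no annotated exon overlaps them and because these genes include the widest group difference (*Fos*), the gene with fewest counts (*Fosb*) and members with and without a match. They run 5′ to 3′ on the strand of the gene, and capitals mark the matches.
Fos, chr12:85520358-85520657, + strand: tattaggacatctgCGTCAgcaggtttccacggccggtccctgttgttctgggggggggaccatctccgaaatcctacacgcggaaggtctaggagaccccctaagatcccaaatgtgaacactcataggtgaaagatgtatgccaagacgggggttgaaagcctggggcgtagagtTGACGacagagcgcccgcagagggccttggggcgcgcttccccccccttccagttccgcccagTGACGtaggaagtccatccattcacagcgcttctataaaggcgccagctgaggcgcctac
Fosb, chr7:19043977-19044276, - strand: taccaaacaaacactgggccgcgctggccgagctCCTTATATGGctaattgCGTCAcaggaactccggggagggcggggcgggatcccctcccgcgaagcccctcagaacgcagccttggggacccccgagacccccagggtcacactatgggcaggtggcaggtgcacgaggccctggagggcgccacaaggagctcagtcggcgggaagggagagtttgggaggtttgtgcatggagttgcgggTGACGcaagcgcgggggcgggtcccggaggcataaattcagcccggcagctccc
Ier2, chr8:85389484-85389783, - strand: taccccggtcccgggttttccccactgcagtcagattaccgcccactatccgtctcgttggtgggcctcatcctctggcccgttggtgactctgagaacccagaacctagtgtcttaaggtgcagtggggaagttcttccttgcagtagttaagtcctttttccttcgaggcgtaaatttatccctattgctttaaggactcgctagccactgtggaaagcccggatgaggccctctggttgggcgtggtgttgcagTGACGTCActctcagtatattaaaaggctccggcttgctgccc
Atf3, chr1:190915538-190915837, - strand: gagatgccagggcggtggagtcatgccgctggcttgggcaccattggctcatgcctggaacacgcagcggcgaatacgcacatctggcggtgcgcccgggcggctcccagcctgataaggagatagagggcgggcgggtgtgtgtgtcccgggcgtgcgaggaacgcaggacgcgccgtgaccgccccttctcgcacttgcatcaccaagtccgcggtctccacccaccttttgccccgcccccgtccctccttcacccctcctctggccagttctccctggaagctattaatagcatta

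The letters searched, on both strands, were the CArG box bound by serum response factor, the cAMP response element TGACGTCA bound by CREB, the core TGACG of that element, and the AP-1 site TGANTCA. A core within a whole element was counted once, with the element. TGACG, alone or within the element, was in the window of 7 of the 10 members (*Fos*, *Fosb*, *Junb*, *Egr1*, *Ier2*, *Dusp1* and *Nr4a1*) and in 19.91% of the windows of 21769 protein-coding genes. *Fos* had 3 cores, starting 286, 123 and 60 bases before the transcript start. *Ier2* held a whole element 43 bases before its start and *Dusp1* one at 96 bases, against 1.75% of all windows. The CArG box was matched in *Fosb* alone, 266 bases before its start (1.7% of all windows). No member held the AP-1 site (7.38% of all windows), and *Atf3*, *Jun* and *Zfp36* held none of these letters in this window. These are matches of letters in a window whose edge was set by annotation, and not measured binding. No member had more exons in its main transcript than the median of 7 over all protein-coding genes. The main transcripts of *Jun*, *Junb* and *Ier2* have 1 exon, and the most was 7, in *Nr4a1*.

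Per kilobase of merged annotated exon, the median level in PKD was highest for *Junb* (22.7 CPM per kb) and *Ier2* (20.4 CPM per kb). *Jun* (16.7), *Dusp1* (14.9), *Zfp36* (10.3), *Egr1* (7.06), *Atf3* (3.32), *Fos* (3.03) and *Nr4a1* (1.04 CPM per kb) followed. *Fosb* was lowest, at 0.178 CPM per kb. The ranges over the 12 PKD kidneys overlapped between all neighbours in this order. The genes were measured in the same kidneys, so this overlap does not show whether the order held within each kidney. The order also depends on the exon length. *Nr4a1* has 10.9 kb of merged exon, and its PKD median before division (11.4 CPM) was above those of *Atf3* (8.10 CPM) and *Fos* (7.14 CPM). In wildtype *Dusp1* stood first (14.0 CPM per kb) and *Fos* next to last (0.339 CPM per kb). The place of *Dusp1* depended on the wildtype libraries, since in the 5 with names ending in R it stood at 10.8 CPM per kb, behind *Ier2* (12.9) and *Jun* (11.2), and in the 3 others at 17.7 CPM per kb.

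The first comparison asks how cystic kidneys differ from wildtype kidneys. Of the 9 members that passed the filter on low counts, 8 were higher in PKD than in wildtype and *Dusp1* did not pass the test, with 24.1% of all 13961 genes tested called higher and 25.0% called lower. The median log2 fold change of the 9 was 1.18, beside -0.01 over all genes tested. All adjusted p-values for this and the other group comparisons are from edgeR's quasi-likelihood test over all genes. In bulk tissue, more cells of a type and more RNA per cell cannot be told apart.

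*Fos* (ENSMUSG00000021250, chr12:85520658-85524047), the partner of the JUN proteins in AP-1, was at 0.508 to 1.23 CPM in wildtype kidneys (median 0.799) and at 2.15 to 17.9 CPM in PKD kidneys (median 7.14). Every PKD kidney lay above every wildtype kidney, and the highest PKD kidney, replicate 9, was far above the lowest, replicate 6. Expression was 9.77-fold higher in PKD (log2 fold change 3.29 ± 0.36 SE, adjusted p = 4.51e-09). *Fosb* (ENSMUSG00000003545, chr7:19036621-19043976), a close relative of *Fos*, fell below the filter. It was at 0.0862 to 0.381 CPM in wildtype and 0.615 to 3.78 CPM in PKD, again without overlap. When genes were kept by edgeR's filterByExpr instead, its log2 fold change was 2.40 (adjusted p = 8.73e-07). Both genes entered these fits through the PKD groups, where they were high. No wildtype kidney reached the filter of log2 CPM over 1 for *Fos*. The adjusted p-values of *Fos* and *Fosb* are therefore a description, and the count of members called above includes *Fos*.

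The JUN genes moved less. *Jun* (ENSMUSG00000052684, chr4:94937271-94940459), the main partner of FOS, was at 22.6 to 43.3 CPM in wildtype (median 29.0) and 41.4 to 77.1 CPM in PKD (median 53.3). The ranges met only where 2 R-named wildtype kidneys reached the lowest PKD kidney. It was 1.70-fold higher (log2 fold change 0.77 ± 0.12, adjusted p = 3.99e-06). *Junb* (ENSMUSG00000052837, chr8:85701113-85705359), a JUN protein that activates transcription less strongly, went from 21.3 to 30.3 CPM in wildtype (median 25.6) to 38.7 to 92.9 CPM in PKD (median 54.1). No PKD kidney overlapped the wildtype range. It was 2.26-fold higher (log2 fold change 1.18 ± 0.13, adjusted p = 2.74e-09).

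Among the other transcription factors, *Egr1*, a zinc finger protein induced by growth factors, was at 3.87 to 9.37 CPM in wildtype (median 5.78) and 15.8 to 71.6 CPM in PKD (median 31.7). It was 5.33-fold higher, with no overlap (log2 fold change 2.41 ± 0.24, adjusted p = 9.94e-10). *Atf3* (ENSMUSG00000026628, chr1:190902493-190950241), a stress-induced factor of the ATF/CREB family, was at 1.23 to 3.72 CPM in wildtype (median 1.72) and 5.38 to 15.4 CPM in PKD (median 8.10). It did not overlap either and was 4.17-fold higher (log2 fold change 2.06 ± 0.22, adjusted p = 4.26e-09). *Nr4a1* (ENSMUSG00000023034, chr15:101151980-101172681), an orphan nuclear receptor, was at 3.30 to 6.72 CPM in wildtype (median 5.30) and 5.53 to 26.7 CPM in PKD (median 11.4). Its ranges overlapped through the lowest PKD kidney, replicate 6, and it was 2.35-fold higher (log2 fold change 1.23 ± 0.20, adjusted p = 6.67e-06). *Ier2* (ENSMUSG00000053560, chr8:85387960-85389483), a small nuclear protein, was at 16.4 to 24.1 CPM in wildtype (median 19.5) and 24.3 to 41.7 CPM in PKD (median 31.0). The groups were just apart, and the difference was 1.56-fold (log2 fold change 0.64 ± 0.09, adjusted p = 5.34e-07).

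The genes whose products end the response had the smallest estimates against all 8 wildtype kidneys, but not against the R set, where *Zfp36* (0.84) lay above *Jun* (0.63) and *Ier2* (0.62). *Dusp1* (ENSMUSG00000024190, chr17:26724564-26781102), a phosphatase that inactivates MAP kinases, was at 31.9 to 60.1 CPM in wildtype (median 46.6) and 39.1 to 81.9 CPM in PKD (median 49.4). The groups overlapped over most of their ranges (log2 fold change 0.15 ± 0.13, adjusted p = 0.358). *Zfp36* (ENSMUSG00000044786, chr7:28076209-28079710), which binds AU-rich mRNAs and speeds their decay, was at 18.5 to 37.6 CPM in wildtype (median 23.0) and 25.9 to 52.6 CPM in PKD (median 36.2). The ranges overlapped, and the difference was 1.45-fold (log2 fold change 0.53 ± 0.13, adjusted p = 0.0012). In 5 of the 9 members tested (*Fos*, *Junb*, *Egr1*, *Atf3* and *Ier2*) all PKD kidneys lay above all wildtype kidneys, as did 5.21% of all genes tested.

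**Figure D1:**
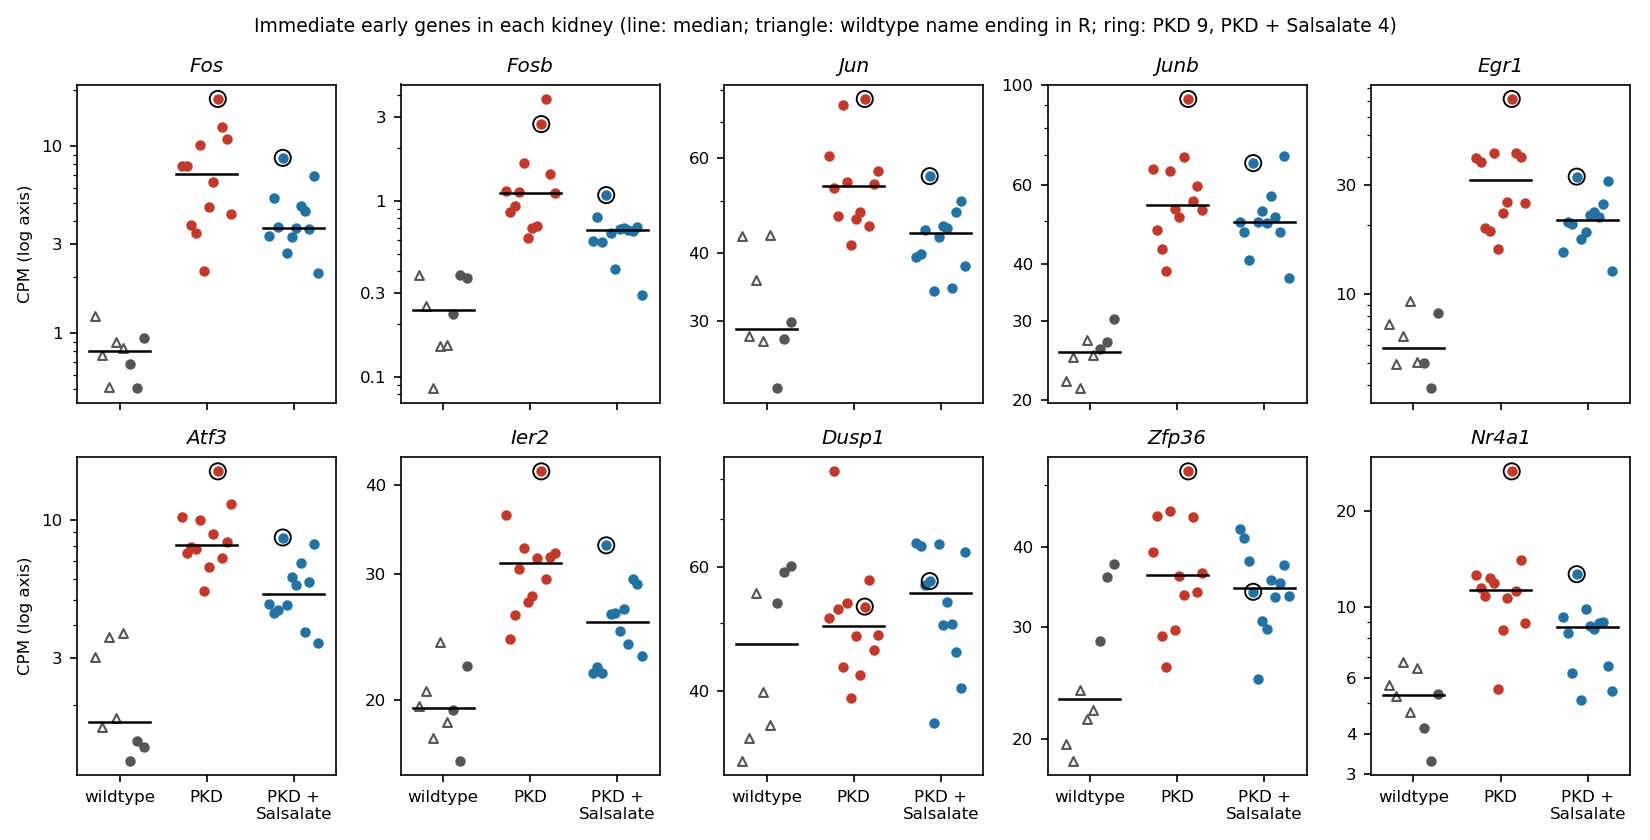
CPM of each of the 10 genes (y, log axis, scaled per panel) in the 8 wildtype, 12 PKD and 12 PKD + Salsalate kidneys (x). Each point is 1 kidney, the line is the group median, triangles are wildtype libraries with names ending in R, and rings mark PKD replicate 9 and PKD + Salsalate replicate 4. *Fos*, *Fosb*, *Junb*, *Egr1*, *Atf3* and *Ier2* separate PKD from wildtype, while *Dusp1* overlaps throughout.

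The values depended on the set of wildtype libraries, and for 2 genes the call in PKD did. Against the 5 wildtype libraries with names ending in R, all 9 members were higher in PKD, as were 30.7% of all genes tested. Against the 3 others, 7 were, beside 20.9% of genes. *Fos*, *Egr1* and *Junb* kept values of 3.21 and 3.39, 2.34 and 2.51, and 1.26 and 1.05 (log2 fold change, R set first). *Zfp36* was 0.84 ± 0.13 (adjusted p = 3.11e-06) against the R set and 0.14 ± 0.16 (adjusted p = 0.478) against the others. *Dusp1* turned direction, from 0.38 ± 0.15 (adjusted p = 0.025) to -0.17 ± 0.16 (adjusted p = 0.407). *Atf3* was 1.72 ± 0.25 against the R set and 2.72 ± 0.30 against the others, and *Jun* 0.63 ± 0.14 and 1.02 ± 0.16, both called in either fit.

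Between the sets of wildtype libraries, 3 of the 9 members tested differed, beside 48.1% of all genes tested. *Zfp36* was lower in the R set (medians 21.5 and 35.9 CPM, log2 fold change -0.69 ± 0.17, adjusted p = 0.0013), and so was *Dusp1* (35.9 and 59.0 CPM, -0.54 ± 0.19, adjusted p = 0.016). *Atf3* was higher in the R set (3.03 and 1.38 CPM, 1.01 ± 0.35, adjusted p = 0.017). The sets also differed in the share of alignments on no annotated gene, which was 13.2% to 15.7% in the R set and 7.60% to 9.77% in the others. In PKD it was 7.65% to 16.4%. Its part in these differences was not tested.

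**Figure D2:**
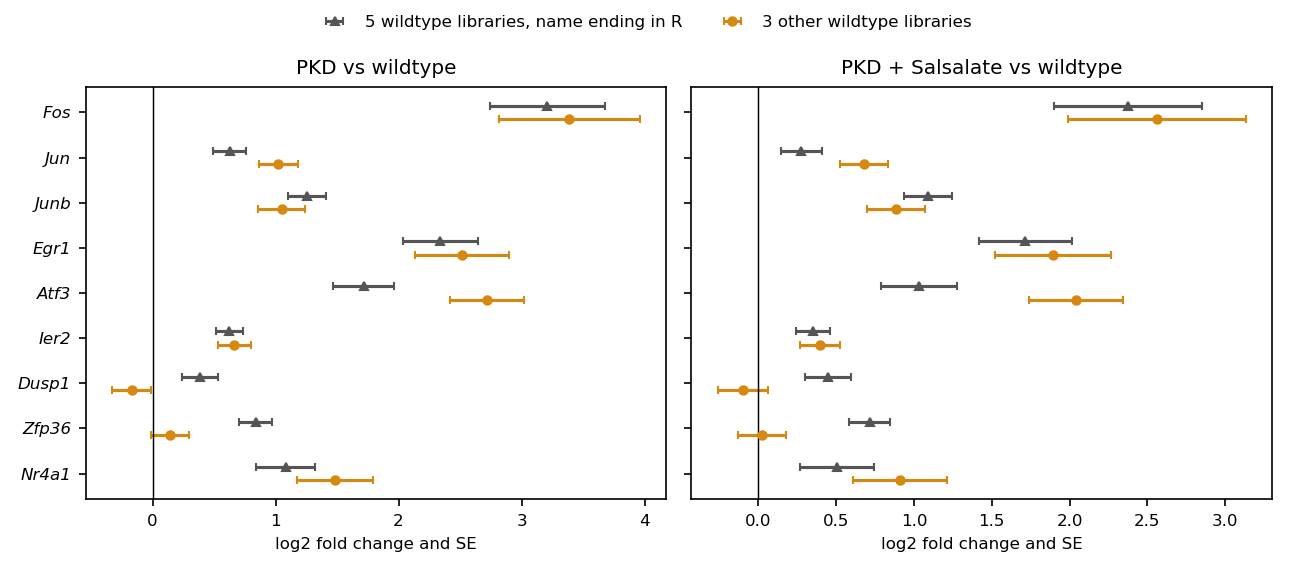
Log2 fold change with its SE (x) of the 9 genes over the filter (y) for PKD (left) and PKD + Salsalate (right), each against the 5 wildtype libraries with names ending in R (triangles) or the 3 others (circles). *Dusp1* and *Zfp36* lie near 0 against the 3 others, and *Fos* lies above 2 in all 4 fits.

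Markers of other cells moved with the same contrast. All 8 markers of tubular injury were higher in PKD, with a summed level of 288 to 488 CPM in wildtype and 545 to 962 CPM in PKD. The same held for 7 of 8 tested leukocyte markers (136 to 212 CPM in wildtype, 294 to 434 CPM in PKD, with *Cd3e* and *Cd79a* below the filter) and for 7 of 8 markers of fibroblasts and smooth muscle (321 to 501 and 801 to 1210 CPM). Of the endothelial markers, 2 rose and 3 fell (410 to 669 and 447 to 494 CPM). Of the markers of proximal tubule 1 rose and 1 fell of 8, and of distal tubule 3 fell of 8. These tubule counts turned with the wildtype libraries: of the proximal markers 7 rose and none fell against the R set, and none rose and 5 fell against the others, and of the distal markers 3 rose and 3 fell, and none rose and 6 fell. Injury markers rose in 8 and 7 of 8 (R set first), leukocyte markers in 7 (with 1 falling) and 8, stromal markers in 6 and 6, and endothelial markers in 2 and 4, with 4 and 1 falling. The summed level of red cell transcripts was 245 to 806 CPM in wildtype and 44.9 to 164 CPM in PKD, and 5 of 5 fell, also within each set. No gene of these lists was at 0 in all wildtype kidneys. The part of these cells in the members' levels was not tested.

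The second comparison asks what 2 weeks of salsalate did in cystic kidneys. Since part of the list was selected on it, its values describe the members and support nothing further. None of the 9 tested members was called by edgeR's quasi-likelihood test, with 0.580% of all genes called in either direction. At an unadjusted p under 0.05, 6 were lower, as were 5.30% of all genes tested. DESeq2 and limma-voom each called 1, *Atf3*. The estimate was below 0 for 8 of the 9, with *Dusp1* as the exception, and the median was -0.35 beside -0.01 over all genes.

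*Fos* was at 2.09 to 8.67 CPM in treated kidneys (median 3.66), with 11 of 12 under the median of PKD, 7.14 CPM. The ranges overlapped widely, and the log2 fold change was -0.83 ± 0.25. *Egr1* was at 12.6 to 32.7 CPM (median 21.2), with 11 of 12 below the PKD median (-0.62 ± 0.19). *Atf3* was at 3.42 to 8.61 CPM (median 5.26), with 10 of 12 below (-0.68 ± 0.17). These genes were lower in level than in PKD but not apart from it.

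*Nr4a1* was at 5.12 to 12.7 CPM (median 8.64), with 11 of 12 treated kidneys below the PKD median (-0.57 ± 0.17). *Jun* was at 34.1 to 55.5 CPM (median 43.6, -0.35 ± 0.11) and *Ier2* at 21.8 to 32.9 CPM (median 25.7, -0.27 ± 0.08). For both, 11 of 12 treated kidneys were below the PKD median. *Fosb* was at 0.290 to 1.08 CPM (median 0.680), with all 12 under the median of PKD, 1.11 CPM, although 5 to 64 counts per kidney carry these values.

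*Junb* (37.2 to 69.4 CPM, median 49.6, log2 fold change -0.17 ± 0.11) and *Zfp36* (24.8 to 42.6 CPM, median 34.5, -0.12 ± 0.11) were close to their PKD levels. *Dusp1* was at 36.1 to 64.9 CPM (median 55.0, 0.07 ± 0.12), and only 3 of 12 were under the median of PKD. No treated kidney exceeded the highest PKD kidney in any member, though for how many of all genes this holds was not counted. That highest kidney was PKD replicate 9 for 8 members, and without it the PKD mean of *Fos* was 6.76 ± 3.42 CPM (SD, n = 11) in place of 7.69 ± 4.58 CPM (SD, n = 12), beside 4.37 ± 1.86 CPM (SD, n = 12) in treated kidneys. Summed tubular injury markers were 455 to 1072 CPM in treated kidneys and 545 to 962 CPM in PKD. By edgeR 0 of 8 were called, all 8 estimates were below 0 (median log2 fold change -0.27) and 4 had an unadjusted p under 0.05. Their part in the members' levels was not tested.

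Compared with wildtype, 8 of the 9 members were higher in PKD + Salsalate, with 21.8% of all genes called higher and 23.2% lower. This comparison shares the 8 wildtype kidneys with the first. *Fos* had the largest difference (log2 fold change 2.46 ± 0.36, adjusted p = 1.54e-06), *Egr1* 3.46-fold (1.79 ± 0.24, adjusted p = 3.64e-07), *Atf3* 2.60-fold (1.38 ± 0.22, adjusted p = 7.82e-06) and *Junb* 2.01-fold (1.01 ± 0.12, adjusted p = 7.83e-08). The rest were between 1.29-fold (*Ier2*) and 1.58-fold (*Nr4a1*), and *Dusp1* was not called (0.22 ± 0.13, adjusted p = 0.186). *Fos*, *Junb* and *Egr1* kept every treated kidney above every wildtype kidney, as did 4.46% of all genes.

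Within the wildtype sets, 7 members were higher in PKD + Salsalate against the libraries ending in R (29.7% of genes) and 7 against the others (18.3% of genes). Against the R set *Jun* (0.28 ± 0.13, adjusted p = 0.075) and *Nr4a1* (0.51 ± 0.24, adjusted p = 0.070) were not called. Against the others it was *Zfp36* (0.03 ± 0.15, adjusted p = 0.908) and *Dusp1* (-0.10 ± 0.16, adjusted p = 0.663) that were not.

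**Figure D3:**
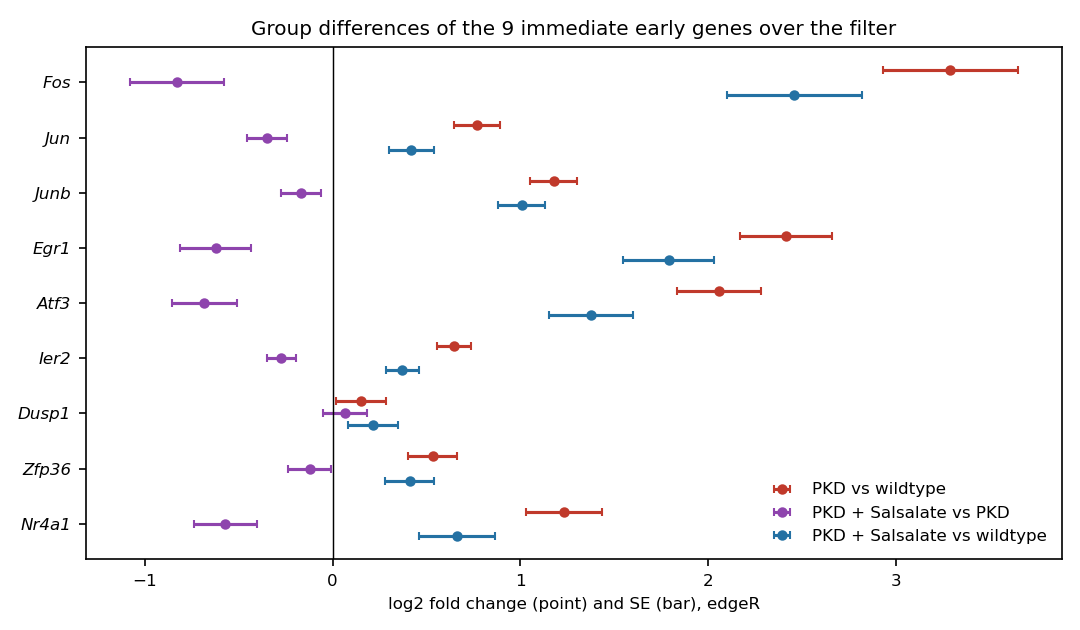
Log2 fold change (points, x) with its SE (bars) of the 9 genes over the filter (y) in the 3 comparisons, from edgeR. *Fos* has the largest difference between PKD and wildtype (3.29), and the treated kidneys lie between PKD and wildtype for every gene but *Dusp1*.

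The members also varied among kidneys of 1 group. In PKD the SD of log2 CPM was 0.88 for *Fos*, more than in 99.3% of the genes tested, 0.74 for *Fosb*, 0.63 for *Egr1* and 0.52 for *Nr4a1*, beside a median of 0.19 over all genes. *Ier2* varied least (0.21, more than in 59.2% of genes). In PKD + Salsalate *Fos* again varied most (0.56, more than in 98.7% of genes). *Ier2* was at 0.19 (61.8% of genes).

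The kidneys at the ends were often the same for several genes. PKD replicate 9 was the highest PKD kidney for 8 of the 10 members and replicate 6 the lowest for 7. In the treated group replicate 4 was highest for 7 and replicate 12 lowest for 5. In wildtype, with the sets of libraries pooled, replicate 8 was highest for 3 (*Junb*, *Dusp1* and *Zfp36*) and replicate 7 lowest for 4. Both lie outside the R set, in which *Dusp1* and *Zfp36* were lower. None of these counts was made over all genes.

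Over the 12 PKD kidneys, Pearson's r between 2 members had a median of 0.61 over the 45 pairs, with 43 pairs above 0. It was 0.39 without replicate 9 and 0.26 without replicates 9 and 6, the kidneys farthest from the median of the members' mean. Over all 97447780 pairs of the genes tested the median was 0, and 8.85% of pairs were at or above 0.61. The pairs share kidneys and genes, so they are not independent. By permutation, 16 of 45 pairs had an adjusted p under 0.05 for r and 12 for Spearman's rho. *Fos* and *Egr1* were closest (r = 0.97, permutation p = 1e-05, which is the smallest that 100000 permutations can give, adjusted p = 0.00045; rho = 0.98, adjusted p = 0.00045), and r was 0.95 without the 2 kidneys farthest from the *Fos* median. *Egr1* and *Zfp36* followed (r = 0.89, adjusted p = 0.0025; rho = 0.83, adjusted p = 0.018; 0.83 without the 2 kidneys, permutation test). *Atf3* and *Ier2* were at r = 0.82 (adjusted p = 0.010 by permutation; rho = 0.84, adjusted p = 0.018) and at 0.70 without the 2 kidneys.

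Other pairs rested on the kidneys at the ends. For *Egr1* and *Atf3* in PKD, r fell from 0.67 (rho = 0.50) to 0.17 without the 2 kidneys, and for *Atf3* and *Nr4a1* from 0.77 (rho = 0.54) to 0.06. Of the 16 pairs called, 10 kept an r over 0.5 without the 2 kidneys farthest from the median of the pair's first gene. *Dusp1* had the lowest median r with the 9 others, 0.28, not far below that of *Jun* (0.34), and its r with *Ier2* was -0.27. By rho *Dusp1* was at 0.62 with *Fos* and 0.64 with *Egr1*. It was closest to *Zfp36* (r = 0.62, adjusted p = 0.054 by permutation; rho = 0.76, adjusted p = 0.036).

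In the 12 treated kidneys the median r of the 45 pairs was 0.48, with 38 pairs above 0, and 11.7% of all gene pairs were at or above it. It was 0.17 without replicates 4 and 12. Here 13 pairs had an adjusted p under 0.05 for r and 7 for rho. *Fos* and *Egr1* were again closest (r = 0.89, adjusted p = 0.0067, and rho = 0.80, adjusted p = 0.025, by permutation). *Junb* and *Atf3* followed (r = 0.86, adjusted p = 0.0081, and rho = 0.77, adjusted p = 0.030, by permutation). Without the 2 kidneys farthest from the median of the pair's first gene, these r were 0.77 and 0.69. For both pairs these kidneys were replicates 4 and 11. *Dusp1* had a median r of -0.23 with the others and *Zfp36* of 0.14. Whether r differed between the groups was not tested. The wildtype libraries form separate sets by name, so no r over the wildtype group alone is given.

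**Figure D4:**
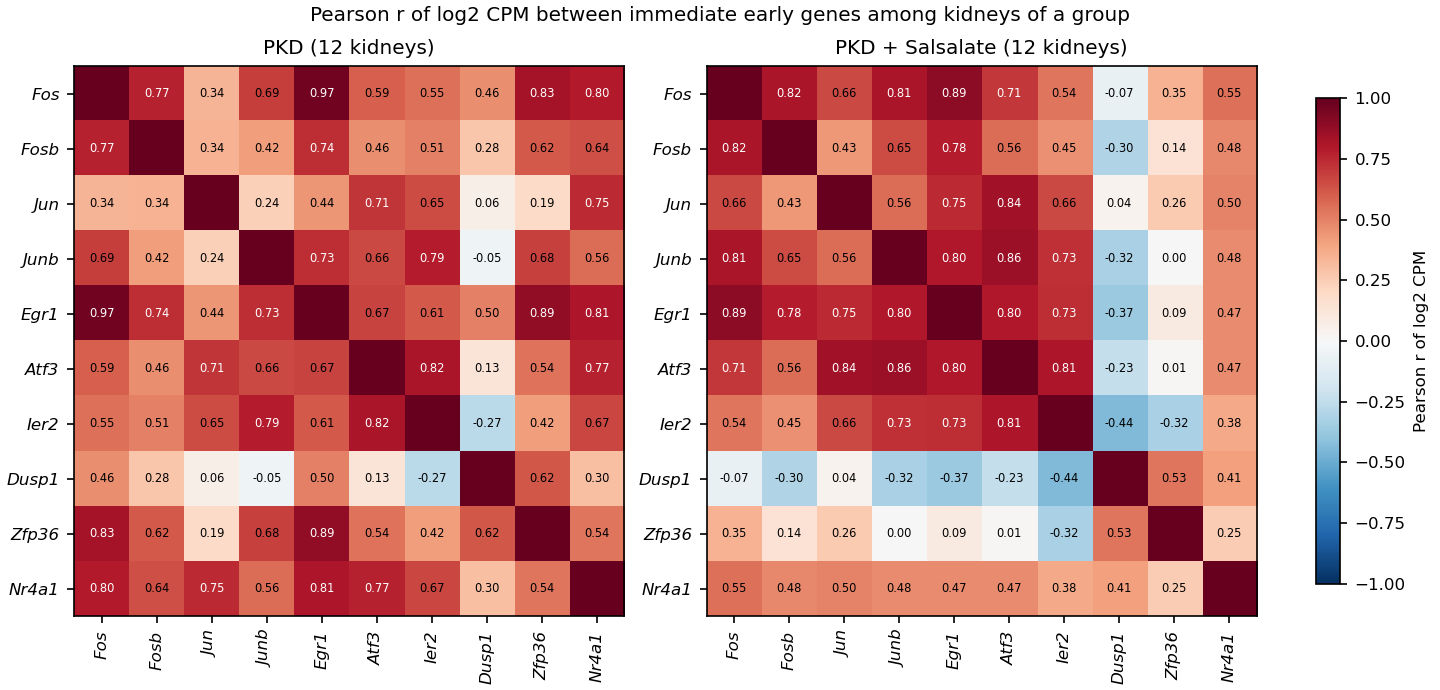
Pearson's r of log2 CPM (colour, with the value in each cell) for each pair of the 10 genes over 12 PKD kidneys (left) and 12 PKD + Salsalate kidneys (right). *Fos* and *Egr1* have the highest r in both (0.97 and 0.89), and the row of *Dusp1* is the palest in PKD and mostly below 0 in treated kidneys.

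**Figure D5:**
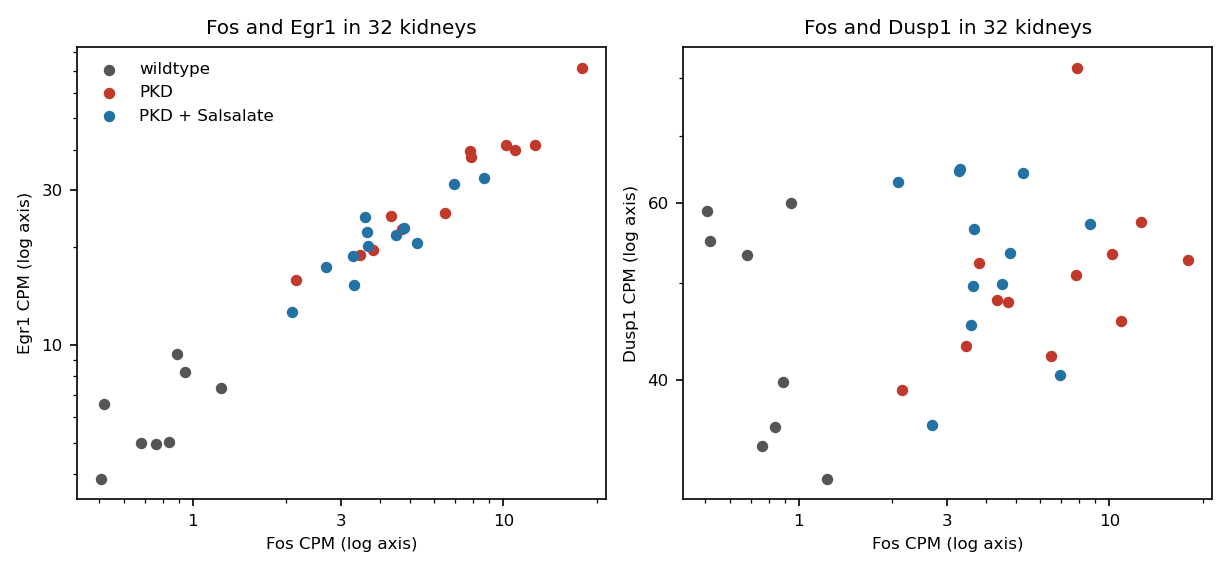
CPM of *Fos* (x, log axis) against *Egr1* (left) and *Dusp1* (right, y, log axes) in 32 kidneys, 1 point each, coloured by group. *Egr1* rises with *Fos* within PKD (r = 0.97 on log2 CPM) and within PKD + Salsalate (r = 0.89), while *Dusp1* does not separate the groups.

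The share of alignments on no annotated gene and log10 total count were set against each member within PKD and within PKD + Salsalate. Of these 40 relations 7 had an unadjusted p under 0.05 by permutation, and 1 passed after adjustment. *Zfp36* in PKD fell with the share of alignments on no annotated gene (r = -0.83, adjusted p = 0.022; rho = -0.84, adjusted p = 0.041, permutation test, n = 12; -0.81 without the 2 farthest kidneys). In treated kidneys its r was -0.64 (rho = -0.73, adjusted p = 0.246 for r by permutation). *Egr1* (-0.57), *Fos* (-0.54) and *Dusp1* (-0.65) in PKD also had an r below 0 with this share but did not pass. With log10 total count, r in PKD was above 0 for every member, from 0.04 (*Fosb*) to 0.68 (*Zfp36*), with *Dusp1* at 0.63 and *Egr1* at 0.61. In treated kidneys it ran from -0.38 (*Nr4a1*) to 0.29 (*Zfp36*). None of these relations to total count passed. The part of library quality or depth in the group differences, or in the co-variation of the members among kidneys, was not tested.

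Other genes of the response were taken from lists that hold no member. Of 24 other transcription factors, 19 were tested, 12 rose in PKD against wildtype and 4 fell, with a median log2 fold change of 0.41. *Egr2*, a relative of *Egr1*, rose by 3.49 (adjusted p = 1.12e-08), *Myc* by 1.36, *Maff* by 1.24, *Fosl2*, another FOS protein, by 1.14 and *Cebpd* by 0.99. *Egr3*, *Egr4*, *Fosl1*, *Nr4a3* and *Npas4* were below the filter. *Id1*, *Cebpb*, *Klf2* and *Hes1* fell, by 0.39 (*Hes1*) to 0.71 (*Id1*) on the log2 scale. In PKD + Salsalate against PKD none of the 19 passed the edgeR test (5 had an unadjusted p under 0.05), and 18 were below 0. Against wildtype, 10 rose and 4 fell in treated kidneys, led by *Egr2* (2.94). Within the wildtype sets 12 rose and 4 fell in PKD against the R set, and 11 rose and 1, *Id1*, fell against the others, where *Hes1* was at 0.05 (adjusted p = 0.795). In treated kidneys 8 rose and 4 fell against the R set and 8 rose and 2 fell against the others.

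Of 38 other effectors 35 were tested, and 20 rose in PKD and 4 fell (median log2 fold change 0.34). *Socs3*, an inhibitor of cytokine signalling, rose by 2.42, *Ccn1*, a matricellular protein, by 1.93, *Nfkbiz* by 1.74, and the MAP kinase phosphatases *Dusp8* and *Dusp5* by 1.21 and 1.16. *Per1*, *Ier3*, *Sgk1* and *Errfi1* fell. *Dusp8* was the only gene of these lists called between PKD + Salsalate and PKD, where it fell by 0.54 (adjusted p = 0.029). Its mean was 4.31 CPM in wildtype, 9.91 CPM in PKD and 6.81 CPM in treated kidneys. In treated kidneys against wildtype 17 effectors rose and 3 fell. In PKD 18 rose and 3 fell against the R set, where *Errfi1* was at -0.01 (adjusted p = 0.975), and 17 rose and 6 fell against the others. In treated kidneys these were 16 and 4, and 13 and 5.

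Of 25 upstream regulators, all tested, 4 rose in PKD and 5 fell, with a median of -0.04. *Egfr* (0.75), *Mrtfa* (0.32) and *Mrtfb* (0.20) rose, the last 2 being cofactors of serum response factor, and *Elk1* (-0.34) and *Map2k2* (-0.26) fell. Against the R set 4 rose and 7 fell and against the others 6 rose and 5 fell, and *Elk1* (adjusted p = 0.101) and *Mrtfb* (adjusted p = 0.174) were not called against the others. Of 17 tested target genes of AP-1 and EGR factors 15 rose and none fell, with a median of 0.88. *Timp1* rose by 4.41, *Ccl2* by 2.95, *Spp1* by 2.50 and *Cd44* by 1.93. None of the 17 passed the edgeR test for salsalate against PKD (5 had an unadjusted p under 0.05), and all were below 0 in estimate. Of the targets 15 rose against the R set and 16 against the others. Several of these targets also mark injured tubule or stroma.

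Heat shock genes also respond to handling and stress. Of 12, 8 rose in PKD and none fell, with a median of 0.27, and 0 were called with salsalate (0 at an unadjusted p under 0.05). Against the R set 5 rose and against the others 3. *Hspb1* rose by 1.33 (1.38 and 1.24 within the sets). *Hspa1b* rose by 0.84 and *Hspa1a* by 0.47, but against the 3 other wildtype libraries they were at 0.18 (adjusted p = 0.575) and 0.12 (adjusted p = 0.719). These copies are nearly identical, so their counts are uncertain. Of 13 circadian clock genes, which follow the hour of collection, 2 rose (*Npas2* by 1.13, *Per2* by 0.46) and 3 fell (*Per1* by 0.53, *Dbp* by 0.33, *Tef* by 0.25), with a median of -0.07, and none was called with salsalate (3 at an unadjusted p under 0.05). Within the sets 2 rose and 3 fell (R) and 2 rose and 5 fell, with *Tef* not called against the R set (adjusted p = 0.139) nor *Per2* against the others (adjusted p = 0.271).

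The 10 genes outside the list whose log2 CPM, centred on the group mean, followed the mean of the members most closely over the 32 kidneys included *Btg2* (r = 0.81), *Tnfaip3* (0.74), *Hmox1* (0.72), *Klf10* (0.71), *Ccn1* (0.70), *Cxcl10* (0.69), *Gadd45b* (0.68), *Kif20a* (0.68) and *Socs3* (0.67). This ranking is a description, and no p is given. With each set of wildtype libraries centred on its own mean, *Btg2* was at 0.82 and *Socs3* at 0.68. *Btg2*, an antiproliferative early gene, was at r = 0.71 without PKD replicate 9, and *Kif20a*, a mitotic kinesin, at 0.56. Of the members themselves, *Fos* (0.85) and *Egr1* (0.85) followed the mean of the other 9 most closely and *Dusp1* least (0.05). Over the 24 kidneys of the PKD groups alone these were 0.89, 0.91 and 0.12.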

How the data were processed

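Kidney RNA of 32 mice was sequenced with a directional library kit. Per the labels, the authors trimmed reads with cutadapt 2.10, aligned them with STAR 2.7.5a to GRCm39 and made counts per gene with HTSeq 0.12.4. The authors deposited raw whole-number counts without normalization. Summary lines that name no gene were left out of library sizes, and 73.6% to 83.1% of alignments fell on genes. All 32 columns were matched to samples by label, and 0 value columns had no sample.

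The members and lists were chosen with earlier results of these data known. Genes with log2 CPM over 1 in at least 25% of kidneys were kept (13961), as in the study, with TMM factors. The 3 groups were fitted together with edgeR 4.0.16 (R 4.3.3) quasi-likelihood and tested 2-sided, with Benjamini-Hochberg adjustment over all genes and a threshold of 0.05. Levels are CPM scaled by the TMM library size. The fit was tested on simulated data.

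Correlations used log2 CPM with a prior count of 2 and 2-sided permutation with 100000 resamples, adjusted over the 45 pairs of a group or the 40 relations to library measures. In each list at most 5 called genes with the largest changes are named per contrast, and the 10 genes most like the members by r, except for an item that is not reported here. *Hes1*, *Klf2*, *Id1*, *Cebpb*, *Ier3*, *Sgk1* and *Errfi1* were named after their values were seen. Exons, positions and windows came from GENCODE M39 on GRCm39, in which 52610 of 53700 identifiers were found, a later release than the Ensembl one the authors aligned to, so gene models may differ. Coordinates and sequence of *Egr1* are not reported here. Windows were read with pysam and Python. Within each group even the most similar libraries differed by more than sampling noise, so no library was counted as a repeat.

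As alternatives, the fit was repeated with size factors from DESeq2 1.42.0 or upper-quartile scaling, with the DESeq2 Wald test, limma-voom (limma 3.58.1), filterByExpr, no filter, the replicate number as a block, only the groups compared, either set of wildtype libraries, and each kidney left out. A fit without PKD replicates 9 and 10, the other lists within each set of wildtype libraries, and r with those sets centred separately or left out were added after seeing the data. For correlations they were Spearman's rho, a prior count of 0.5, DESeq2 size factors and kidneys left out.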

Additional observations from a re-analysis of the deposited data

How the results depend on the processing

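The count of members higher in PKD than in wildtype was 8 in the fit reported and 7 to 9 under the alternatives, and in PKD + Salsalate against wildtype it was 8 and 7 to 9. With filterByExpr or no filter both counts were 9, through *Fosb*. For PKD + Salsalate against PKD the count was 0, and it was 1 with the DESeq2 Wald test, limma-voom, filterByExpr, no filter and only the 2 groups compared. With a kidney left out it ranged from 0 to 2: it was 2 without PKD replicate 6 (*Atf3* and *Nr4a1*) and 1 without wildtype replicate 3, 5 or 7 or PKD + Salsalate replicate 4 or 11 (*Atf3*). The adjusted p of *Atf3* ranged from 0.013 to 0.155 over the alternatives. *Fosb* was the member called with filterByExpr (-1.07, adjusted p = 0.033) and no filter (adjusted p = 0.045). Its highest PKD kidney was replicate 10 (3.78 CPM), which held liver transcripts, ahead of replicate 9 (2.72 CPM). Both fits held all kidneys, so the dependence of this call on replicate 10 was not tested. Without PKD replicates 9 and 10, chosen after seeing the data, the counts were 8, 0 and 8, and *Fos* was -0.52 in PKD + Salsalate against PKD, in place of -0.83.

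Over all genes, the edgeR count of calls between PKD + Salsalate and PKD was 81. It was 199 with the DESeq2 Wald test, 146 with limma-voom, 195 with only the 2 groups compared and 48 with the replicate block. With 1 kidney left out it ranged from 39 (PKD + Salsalate replicate 5) to 226 (PKD + Salsalate replicate 11), and it was 39 without PKD replicates 9 and 10.

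The replicate numbers were not taken to pair the kidneys in the fit reported. Correlations of same-numbered kidneys ran from -0.55 to 0.47. Over 0.1 were 3 of 8 pairs of PKD with wildtype, 2 of 12 of PKD + Salsalate with PKD and 3 of 8 of PKD + Salsalate with wildtype. Kidneys with different numbers were not compared, so pairing was not tested. With the replicate number as a block the counts were 8, 0 and 8. *Dusp1* reversed with only the wildtype libraries not ending in R, to -0.17 in PKD and -0.10 in PKD + Salsalate; the cause was not tested. Counts of the other lists within each set, chosen after seeing the data, stand beside their results. The median r of the pairs in PKD was 0.61 in the values reported, 0.55 by Spearman's rho and 0.39 to 0.69 with 1 kidney left out, lowest without replicate 9. Without the kidneys farthest from the median of the members' mean (replicates 9 and 6) it was 0.26. In PKD + Salsalate it was 0.48, 0.41 by rho, 0.33 to 0.57 with 1 kidney left out, lowest without replicate 4, and 0.17 without replicates 4 and 12. The cause was not tested. Depth limits *Fosb* and, in wildtype, *Fos*, which rest on few counts per kidney.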
